A study of Schizosaccharomyces pombe with 9 samples.

Results

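The thiamine-responsive genes described here are 6 of the 6986 features counted in 3 strains of the fission yeast Schizosaccharomyces pombe: nmt1 (SPCC1223.02), thi2 (SPBC26H8.01), thi4 (SPAC23H4.10c), pho4 (SPBC428.03c), bsu1 (SPAC17A2.01) and thi9 (SPAC9.10). They were chosen by name as genes of thiamine synthesis, salvage and uptake, with bsu1, which encodes a vitamin B6 carrier, included. All 6 passed the filter on low counts. Polyadenylated RNA was sequenced from log-phase vegetative cultures in rich YES medium at 30 degrees: a wild type (WT, libraries 4, 5 and 6), an aps1 deletion strain (libraries 1, 2 and 3) and an asp1-D333A strain (libraries 1, 2 and 3), each represented by 1 laboratory strain. Aps1 is an enzyme that hydrolyses inositol pyrophosphates, whereas Asp1 synthesizes them through its kinase domain, in which the D333A change lies. The series asks how these signalling molecules act on phosphate genes, 3' processing and termination, and its labels name no thiamine treatment.

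Thiamine, vitamin B1, is built from a pyrimidine and a thiazole that are made separately and then joined. In fission yeast, genes of this pathway are repressed when thiamine is in the medium, with nmt1 (no message in thiamine) as the best-known case. The nmt1 promoter is widely used to drive transgenes that thiamine shuts down. The zinc-finger factors Thi1 and Thi5 act as activators of these genes. Yeast extract, the base of YES, contains thiamine. In WT, nmt1 stood at 0.382 CPM per kb of transcript, and the other genes of the 6 between 19.8 (bsu1) and 139 (pho4).

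Total counts ran from 18244492 to 22999732 per library. Counts of aps1 lay between 2516 and 2634 for WT and between 137 and 224 for the deletion, and a point mutation such as D333A cannot be checked from counts. For asp1-D333A, aps1 counts lay between 1827 and 2131, and edgeR called aps1 lower than in WT (log2 fold change -0.69, adjusted p 7.2e-05). The deletion had more asp1 than WT (0.34, adjusted p 0.048 in edgeR), a call lost in 8 of 15 alternatives. No pair of libraries of a strain agreed within sampling noise, with a chi-square per gene from 4.23 to 74.7, and the 2 highest values both involved asp1-D333A replicate 3. Of 5 sporulation genes (spo3, mei4, spo6, mde2, meu14), spo3 stood at 63.6 ± 1.49 CPM in WT (SD, n = 3) and the rest below 5 CPM in every strain's mean; edgeR called meu14 lower in the deletion, and meu14 higher and spo6 lower in asp1-D333A, where leaving out any library other than WT replicate 6 ended the call of meu14. The meu14 call in the deletion (log2 fold change -1.08) was lost without WT replicate 6 (-0.71, adjusted p 0.13 in edgeR) or without deletion replicate 1, 2 or 3. The p-values measure the spread between 3 libraries that the labels call replicate experiments.

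In asp1-D333A, 4 of the 6 thiamine genes were lower than in WT and none was higher. The thiamine transporter gene thi9 fell most, to 47.5% of its WT mean, followed by thi4 at 60.2%, pho4 at 69.2% and thi2 at 84.1%. In the aps1 deletion 1 of the 6, thi4, was lower than WT, at 82.5%, and that call was fragile. Calls rest on quasi-likelihood tests in edgeR, adjusted by Benjamini-Hochberg over the 6147 genes tested, with 0.05 as the threshold. That test called 61.1% of all genes in asp1-D333A and 16.6% in the aps1 deletion, so 4 and 1 of 6 are shares near the background when direction is set aside. Of all genes, 30.3% were called higher and 30.8% lower in asp1-D333A, and 6.73% higher and 9.83% lower in the deletion. In bulk RNA, fewer cells with a transcript and less of it per cell cannot be told apart. The median log2 fold change of the 6 was -0.39 in asp1-D333A, beside 0.01 for all genes, and -0.003 in the deletion, beside -0.01 for all genes.

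**Figure D1:**
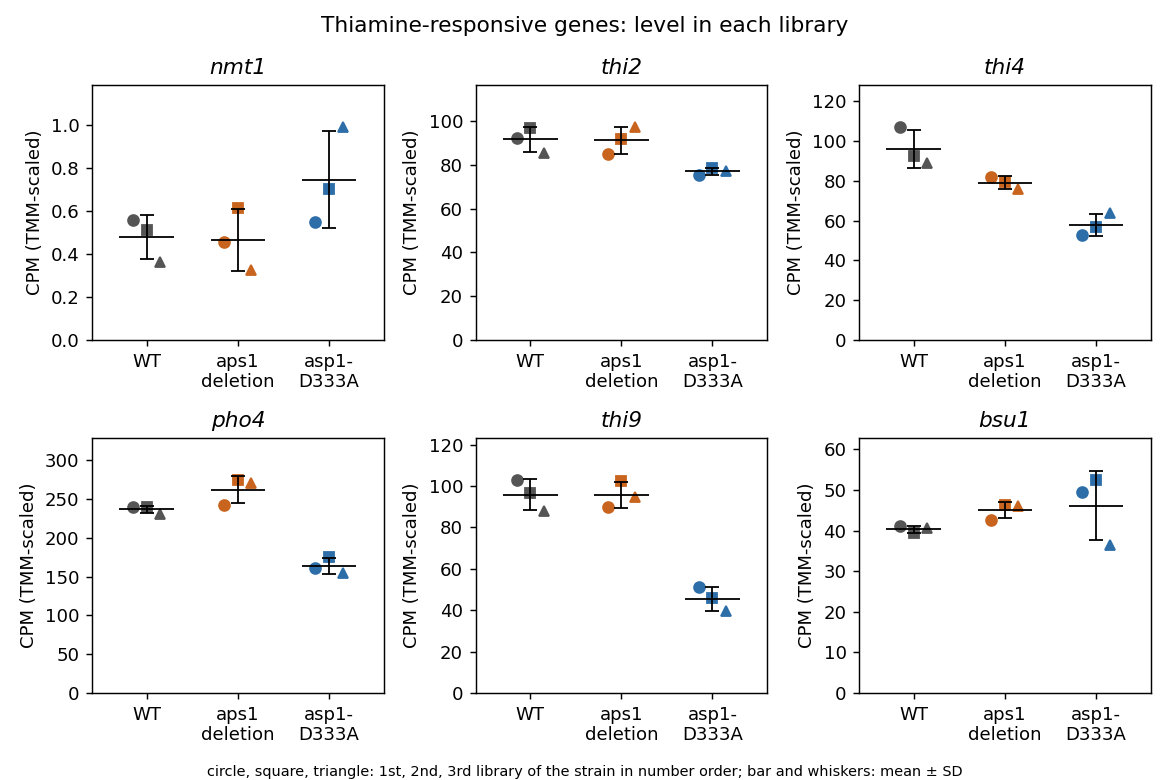
Level of each of the 6 genes in each of the 9 libraries, in CPM after TMM scaling on a linear axis from 0, with points for libraries and a bar with whiskers for mean and SD (n = 3). The asp1-D333A points of thi2, thi4, pho4 and thi9 lie below every WT point, while nmt1 stays under 1 CPM in all libraries.

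The 100 bases before the annotated start of each gene are shown because 4 of the 6 carry the motif TATAAA at nearly the same distance. The sequences are those of RefSeq assembly ASM294v3, read 5' to 3' on the strand of the gene, with TATAAA in capitals. They lie at chrIII:1838315-1838414 (plus strand, nmt1), chrII:3940426-3940525 (plus, thi2), chrI:1589833-1589932 (plus, thi4), chrII:447029-447128 (minus, pho4), chrI:1482319-1482418 (plus, thi9) and chrI:3549934-3550033 (plus, bsu1).
nmt1: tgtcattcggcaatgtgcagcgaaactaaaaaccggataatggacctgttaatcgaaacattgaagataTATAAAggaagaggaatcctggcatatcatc
thi2: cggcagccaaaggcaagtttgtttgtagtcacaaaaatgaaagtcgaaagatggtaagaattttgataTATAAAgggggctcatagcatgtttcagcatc
thi4: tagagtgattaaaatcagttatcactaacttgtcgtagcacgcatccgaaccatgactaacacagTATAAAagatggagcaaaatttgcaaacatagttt
pho4: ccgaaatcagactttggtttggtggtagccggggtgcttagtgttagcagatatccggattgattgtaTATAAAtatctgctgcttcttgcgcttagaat
thi9: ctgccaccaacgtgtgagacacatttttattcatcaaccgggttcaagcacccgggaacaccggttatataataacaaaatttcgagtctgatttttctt
bsu1: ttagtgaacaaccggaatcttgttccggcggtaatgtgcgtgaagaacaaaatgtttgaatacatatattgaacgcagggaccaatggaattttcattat

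The motif searched was TATAAA on both strands, with overlapping matches kept. Only exact matches were counted, so variants such as the tatataa in the printed thi9 sequence were left out. Its first base lay 31 bases before the annotated start in nmt1, 32 in thi2, 35 in thi4 and 32 in pho4, each on the strand of the gene. Of the promoters of 5112 protein-coding genes, taken from 250 bases before to 50 after the start, 48.1% held the motif on either strand and 4.4% held it on the coding strand between 25 and 40 bases before the start, a stretch chosen after the positions were seen. No match fell in these 100 bases of thi9 and bsu1; the wider stretch of thi9 held it 215 bases before the start on the coding strand, and that of bsu1 did not hold it. The wider stretch also held further matches in thi2, 198 bases before the start on the coding strand and 202 on the other, and in thi4, 196 on the coding strand and 198 on the other.

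Levels were compared between genes as CPM per kb of annotated transcript. In WT, pho4 stood highest at 139 ± 2.80 CPM per kb (SD, n = 3), then thi2 at 78.0 ± 4.91, thi9 at 41.0 ± 3.19, thi4 at 28.9 ± 2.87, bsu1 at 19.8 ± 0.420 and nmt1 at 0.382 ± 0.0808, and no neighbours in this order overlapped. Per kb of coding length thi4 came before thi9 in WT, and their libraries overlapped. In asp1-D333A the order per kb of transcript after pho4 and thi2 was bsu1 at 22.7 ± 4.17, thi9 at 19.5 ± 2.50 and thi4 at 17.4 ± 1.69, where bsu1 overlapped thi9 and thi9 overlapped thi4. Together the 6 genes took between 0.053% and 0.0573% of counts in WT libraries, between 0.0532% and 0.055% in the deletion and between 0.0411% and 0.0436% in asp1-D333A.

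The pyrimidine branch begins with nmt1, which encodes 4-amino-5-hydroxymethyl-2-methylpyrimidine phosphate synthase. Its counts were 10, 10 and 7 in WT libraries 4, 5 and 6, then 9, 11 and 6 in aps1 deletion libraries 1, 2 and 3, and 12, 17 and 25 in asp1-D333A libraries 1, 2 and 3. All 9 libraries were therefore close to the limit of detection, and the 3 strains overlapped when scaled to CPM. The mean was 0.477 ± 0.101 CPM in WT, 0.464 ± 0.143 in the deletion and 0.744 ± 0.223 in asp1-D333A (SD, n = 3 each). Relative to WT, nmt1 differed by -0.04 on the log2 scale in the deletion (SE 0.42; edgeR quasi-likelihood, adjusted p 0.97) and by 0.65 in asp1-D333A (SE 0.38; adjusted p 0.15). With standard errors of this size even a change of 0.65 was not called, so changes of that size or smaller can go undetected. With only the WT and deletion libraries, nmt1 did not pass the filter on low counts. Its value in the deletion therefore comes only from fits that also hold asp1-D333A, where its counts were highest.

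The thiazole is made by the product of thi2, the thiazole synthase. Its level was 92.3, 96.9 and 85.4 CPM in WT libraries 4, 5 and 6, then 84.8, 91.7 and 97.0 in the deletion, and 75.5, 78.5 and 77.0 in asp1-D333A. WT and the deletion overlapped, and all 3 asp1-D333A libraries were below both. The log2 fold change in asp1-D333A was -0.25 (SE 0.07; edgeR quasi-likelihood, adjusted p 0.0096), and in the deletion it was -0.01 (SE 0.07). The fall in asp1-D333A was not called with upper-quartile scaling (-0.08, adjusted p 0.33 in edgeR), with total counts only (-0.11, adjusted p 0.16) or without WT replicate 5 (-0.19, adjusted p 0.082). Upper-quartile and total-count scaling raised the median of all genes in this comparison to 0.18 and 0.14.

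Pyrimidine and thiazole are joined by the product of thi4, a thiamine-phosphate dipyrophosphorylase that also carries hydroxyethylthiazole kinase. Levels were 107, 92.2 and 88.8 CPM in WT, then 82.0, 79.6 and 75.7 in the deletion, and 52.9, 56.5 and 63.9 in asp1-D333A. The 3 strains did not overlap, with WT highest and asp1-D333A lowest. Against WT the log2 fold change was -0.73 (SE 0.09; edgeR quasi-likelihood, adjusted p 1.4e-05) in asp1-D333A and -0.28 (SE 0.09, adjusted p 0.049) in the deletion. The call in the deletion was lost in 10 of 15 alternatives, namely RLE scaling, total counts only, no filter, and leaving out any of the 3 WT or 3 deletion libraries or asp1-D333A replicate 2, where the adjusted p of the edgeR test ran up to 0.18. On the opposite strand the annotation places cdb4, which overlaps the later part of the long thi4 transcript and had 447 ± 5.33 CPM in WT; cdb4 fell in asp1-D333A by 0.34 on the log2 scale (SE 0.08, adjusted p 0.0017 in edgeR), a call lost with upper-quartile or total-count scaling.

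Salvage is represented by pho4, a thiamine-repressible acid phosphatase of the cell surface that removes phosphate from thiamine phosphates. It had 239, 239 and 231 CPM in WT, 242, 274 and 270 in the deletion, and 161, 175 and 155 in asp1-D333A. Every asp1-D333A library was below, and every deletion library above, the WT libraries. The log2 fold change was -0.53 in asp1-D333A (SE 0.07; edgeR quasi-likelihood, adjusted p 1.5e-05), and 0.15 in the deletion (SE 0.07, adjusted p 0.14), which did not pass. Non-overlap of 3 and 3 libraries was common in these data, at 39.2% of all genes for the deletion against WT, where it held for 3 of the 6 thiamine genes (thi4, pho4 and bsu1), and at 65.7% for asp1-D333A against WT, where it held for 4 of 6.

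A list of 5 other acid phosphatase genes, by name or relatedness, had 3 that fell in asp1-D333A, 1 that rose and 1 that was not called, and 2 that rose in the deletion. Of all genes, 61.1% were called in asp1-D333A (30.8% lower, 30.3% higher) and 16.6% in the deletion (9.83% lower, 6.73% higher). The transcript closest to pho4 in sequence was SPBC21H7.03c, annotated as a multiple inositol polyphosphate phosphatase, at 75.0% identity over 1398 nucleotides. The deletion had more of it (log2 fold change 0.34, SE 0.07; edgeR quasi-likelihood, adjusted p 0.0064), and its value in asp1-D333A was -0.14 (SE 0.07, adjusted p 0.11). The phosphate-regulated pho1 moved much further than pho4, with log2 values of 1.71 for the deletion (SE 0.16) and -4.39 for asp1-D333A (SE 0.18), both called. SPBC4.06 fell by 0.68 (SE 0.06) in asp1-D333A. SPBC409.18, a phosphatidic acid phosphatase that shares only the wording, fell by 0.21 (SE 0.07), a call lost with upper-quartile or total-count scaling and without WT replicate 5 or asp1-D333A replicate 1. SPBP8B7.31 rose there by 0.35 (SE 0.10).

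Thiamine enters the cell through Thi9, a high-affinity thiamine and proton transporter of the plasma membrane. The thi9 level was 103, 96.8 and 87.9 CPM in WT, 90.1, 103 and 94.6 in the deletion, and 51.2, 45.8 and 39.5 in asp1-D333A. Each asp1-D333A library was well below the 6 others, which overlapped freely. The log2 fold change in asp1-D333A was -1.07 (SE 0.10; edgeR quasi-likelihood, adjusted p 1.1e-06), and it ran from -1.17 to -0.90 over 15 alternatives, all past the threshold. In the deletion it was -0.0003 (SE 0.10).

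The second transporter, bsu1, encodes an import carrier for vitamin B6. It had 41.1, 39.4 and 40.6 CPM in WT, 42.7, 46.3 and 46.1 in the deletion, and 49.6, 52.4 and 36.5 in asp1-D333A. In asp1-D333A libraries 1 and 2 were above all WT libraries and library 3 was below them. The log2 fold change was 0.19 (SE 0.12; edgeR quasi-likelihood, adjusted p 0.16) in asp1-D333A and 0.16 (SE 0.12, adjusted p 0.38) in the deletion. Without asp1-D333A replicate 3 the edgeR test called bsu1 higher in asp1-D333A (0.34, adjusted p 0.0014), and it did so with upper-quartile scaling (0.36, adjusted p 0.016) and total counts only (0.32, adjusted p 0.029).

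**Figure D2:**
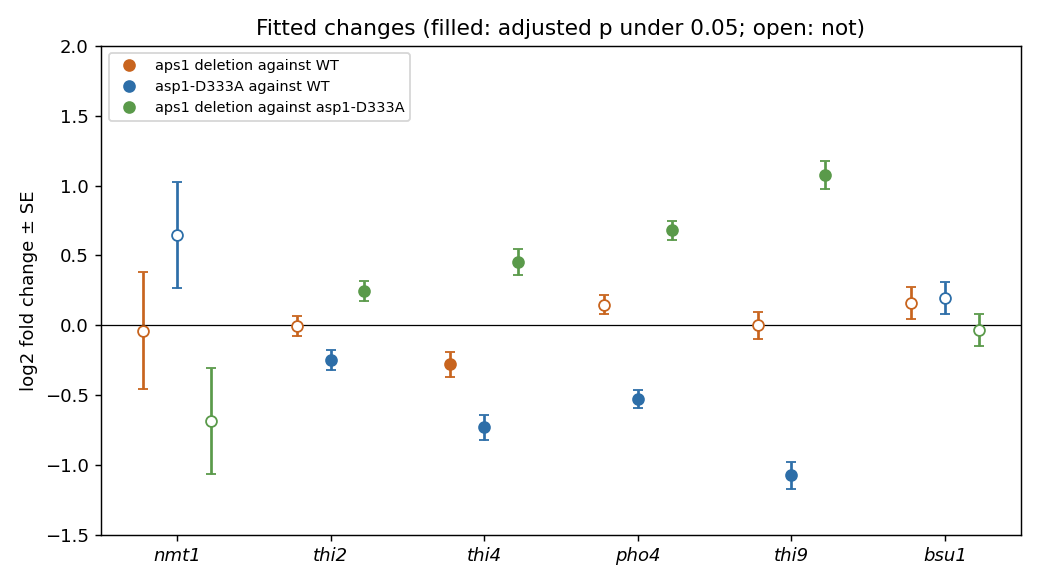
Fitted log2 fold change and standard error of the 6 genes in the 3 comparisons, filled where called by edgeR. In asp1-D333A against WT the points of thi2, thi4, pho4 and thi9 lie between -0.25 and -1.07, and the bars of nmt1 are the widest of the 6.

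Set directly against each other, the strains differed in 4 of the 6 genes, all higher in the aps1 deletion than in asp1-D333A. The background is wide here too: the test called 68.8% of all genes, 33.9% as higher in the deletion. The log2 difference, deletion minus asp1-D333A, was 1.07 (SE 0.10) for thi9, 0.68 (SE 0.07) for pho4, 0.45 (SE 0.09) for thi4 and 0.24 (SE 0.07) for thi2. Adjusted p-values of edgeR's quasi-likelihood test were 5.9e-07 for thi9, 1.0e-06 for pho4, 0.00054 for thi4 and 0.0093 for thi2. The libraries of these 4 did not overlap, as was the case for 70.5% of all genes. For thi2 the call was lost with upper-quartile scaling (0.03, adjusted p 0.71 in edgeR) and with total counts only (0.05, adjusted p 0.51). The difference was -0.03 (SE 0.12) for bsu1 and -0.69 (SE 0.38, adjusted p 0.12 in edgeR) for nmt1, which was called with upper-quartile scaling (-0.90, adjusted p 0.045).

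Non-coding RNAs on the opposite strand were counted for 3 of the 6 genes, and those of pho4 and thi9 moved against the coding gene in asp1-D333A. SPNCRNA.1358 overlaps the last 114 bases of pho4 and had 13.1 ± 1.16 CPM in WT, 5.91 ± 0.123 in the deletion and 23.04 ± 5.045 in asp1-D333A (SD, n = 3 each). On the log2 scale it differed from WT by -1.14 in the deletion (SE 0.16; edgeR quasi-likelihood, adjusted p 0.00044) and by 0.82 in asp1-D333A (SE 0.15; adjusted p 0.00032). SPNCRNA.743 overlaps the first 152 bases of thi9. It had 3.26 ± 0.0768 CPM in WT, 1.84 ± 0.352 in the deletion and 5.39 ± 1.18 in asp1-D333A (SD, n = 3 each), which gave log2 values against WT of -0.82 for the deletion (SE 0.22; edgeR, adjusted p 0.023) and 0.72 for asp1-D333A (SE 0.20; adjusted p 0.0066). The call in the deletion was lost when WT replicate 4, 5 or 6 or deletion replicate 2 or 3 was left out, with adjusted p up to 0.10 in edgeR.

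Antisense counts moved with strain elsewhere too. Over the 50 pairs of a non-coding feature and the coding gene it lies whole within on the opposite strand, taken from the most abundant coding genes, antisense counts were 0.894% to 1.32% of sense counts in WT libraries, 0.7% to 0.774% in the deletion and 1.34% to 1.39% in asp1-D333A. The part of this shift in the values of SPNCRNA.1358 and SPNCRNA.743 was not tested. SPNCRNA.1358 stood at 5.13% to 5.92% of pho4 counts in WT, 2.11% to 2.45% in the deletion and 11.2% to 15.6% in asp1-D333A, and SPNCRNA.743 at 3.21% to 3.61%, 1.51% to 2.48% and 10.7% to 13.2% of thi9 counts.

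At nmt1 the antisense RNA was the more abundant. SPNCRNA.1234 covers the whole nmt1 transcript of 1250 bases from the opposite strand and had 22.2 ± 1.502 CPM in WT, 25.8 ± 2.72 in the deletion and 18.6 ± 1.21 in asp1-D333A (SD, n = 3 each). The nmt1 counts were 1.54% to 2.50% of it in WT, 1.38% to 2.45% in the deletion and 3.08% to 5.47% in asp1-D333A. How many of the few nmt1 counts stem from the other strand was not tested. SPNCRNA.1234 was called lower in asp1-D333A (log2 fold change -0.26, SE 0.10; edgeR quasi-likelihood, adjusted p 0.047), a call lost in 8 of 15 alternatives: upper-quartile scaling, total counts only, and without WT replicate 4, 5 or 6, deletion replicate 2 or asp1-D333A replicate 1 or 3. SPNCRNA.1235 starts 122 bases beyond nmt1 on the same strand and rose in asp1-D333A by 0.40 (SE 0.11, adjusted p 0.0061 in edgeR).

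**Figure D3:**
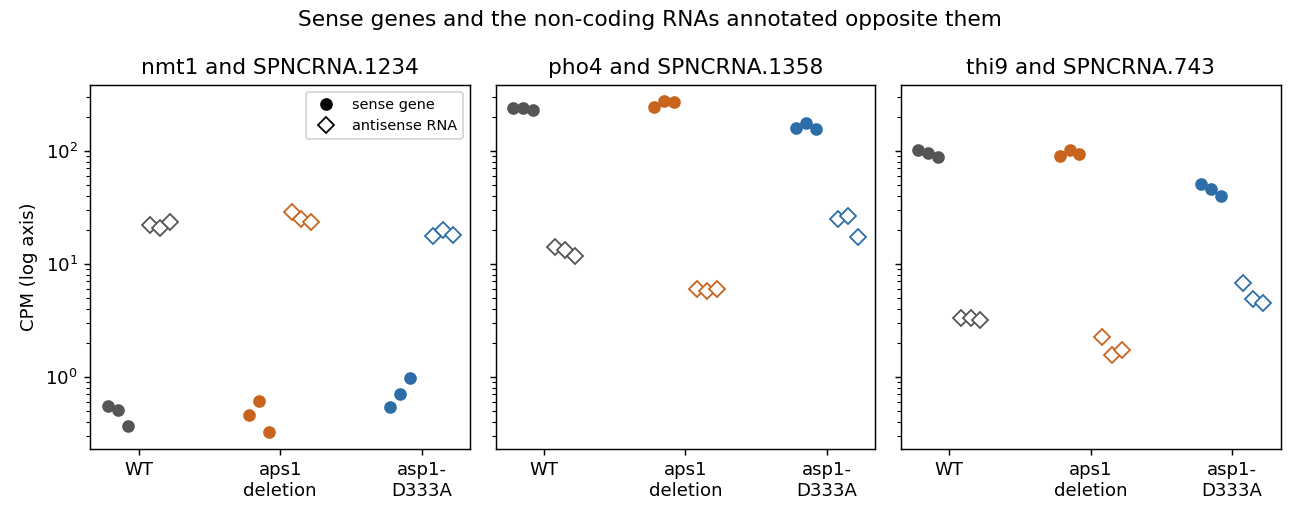
Level of nmt1, pho4 and thi9 (filled circles) and of the non-coding RNA annotated opposite each (open diamonds) in every library, in CPM on a log axis. The antisense RNA lies above nmt1 in all 9 libraries and below pho4 and thi9 in all 9, with the gap narrowest in asp1-D333A for each pair.

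Of the remaining neighbours, iwr1, which lies 53 bases beyond thi4 and encodes a nuclear import factor of RNA polymerase II, rose in asp1-D333A by 0.53 (SE 0.10; edgeR quasi-likelihood, adjusted p 0.00033). SPNCRNA.1359, downstream of pho4 on the same strand, rose by 0.57 (SE 0.18, adjusted p 0.016), a call lost without WT replicate 6, asp1-D333A replicate 1 or asp1-D333A replicate 2. The neighbours sec9, cnl2 and tlc4 were not called against WT, with log2 fold changes from -0.30 to 0.26. SPNCRNA.171, upstream of thi9, had 0 counts in all 9 libraries, which allows up to 3 counts in each. Further non-coding RNAs annotated opposite thi2, thi4, bsu1 and thi9 are not among the features counted.

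The other genes of thiamine metabolism were read from a list of 9, the members left out. In asp1-D333A 6 of the 9 fell and 1 rose, beside 30.8% lower and 30.3% higher over all genes. The median log2 fold change of the 9 was -0.40, beside 0.01 for all genes. The phosphomethylpyrimidine kinase gene thi201 fell furthest, with a log2 fold change of -1.36 (SE 0.10), followed by SPBC530.07c of the TENA/THI family at -0.80 (SE 0.11). The activator genes thi1 and thi5 stood at -0.67 (SE 0.06) and -0.40 (SE 0.07). SPBC1604.04, annotated as a thiamine pyrophosphate transporter, stood at -0.42 (SE 0.08) and tnr3, which encodes thiamine diphosphokinase, at -0.38 (SE 0.09). Their adjusted p-values lay between 1.3e-07 and 0.0018 in edgeR's quasi-likelihood test, and only the call of tnr3 was lost, with total counts only (-0.25, adjusted p 0.052 in edgeR). The kinase gene thi20, adjacent in name and function to thi201, was not called (0.06, SE 0.06, adjusted p 0.43), nor was SPCC18B5.05c (-0.13, SE 0.10).

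The gene that rose was SPCC794.03, annotated as a thiamine transporter and the closest transcript to thi9 in sequence, at 67.6% identity over 262 nucleotides. WT libraries gave 113, 109 and 92 counts, deletion libraries 47, 69 and 65, and asp1-D333A libraries 628, 751 and 387. The log2 fold change in asp1-D333A was 2.17 (SE 0.25; edgeR quasi-likelihood, adjusted p 2.5e-05), opposite in direction to thi9. In the deletion it was -0.78 (SE 0.30, adjusted p 0.099), with no overlap of the libraries, as was the case for 39.2% of all genes. In CPM it remained below thi9 in asp1-D333A, at 24.9 ± 8.45 against 45.5 ± 5.84 (SD, n = 3), values not scaled for length.

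None of the 9 was called in the aps1 deletion by edgeR, beside 16.6% of all genes. In the same test 3 of the 9 had an unadjusted p under 0.05, and DESeq2 called 1. Between the mutants 7 of 9 differed, 6 higher and 1 lower in the deletion, beside 68.8% of all genes called. The activators stood at 209 ± 14.1 CPM (thi1) and 104 ± 3.39 (thi5) in WT and at 132 ± 5.23 and 78.65 ± 4.59 in asp1-D333A (SD, n = 3 each).

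**Figure D4:**
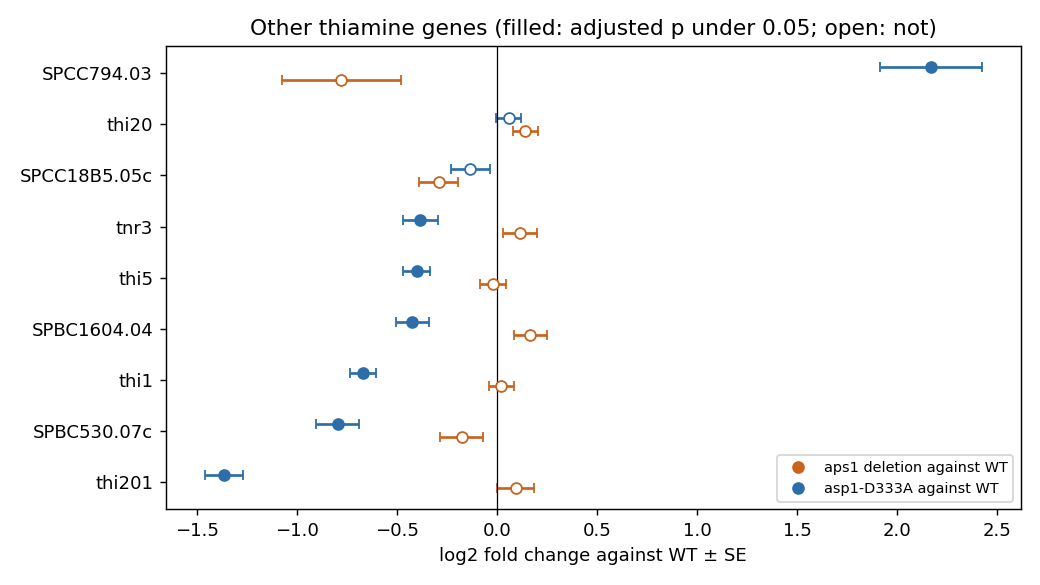
Fitted log2 fold change against WT with standard error for the 9 other thiamine genes in both mutants, filled where called by edgeR. In asp1-D333A 6 filled points lie left of 0 and that of SPCC794.03 lies at 2.17, while all 9 points of the aps1 deletion are open.

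Genes named for enzymes that use thiamine diphosphate as cofactor, a regulatory subunit included, moved both ways. Of 10 listed genes 9 were tested, as pdc102 had too few counts. In asp1-D333A 3 rose and 2 fell, beside 30.3% higher and 30.8% lower over all genes. The pyruvate decarboxylase gene pdc101, by far the most abundant of the 4 pdc genes, fell from 4911 ± 211 to 2724 ± 400 CPM (SD, n = 3 each; log2 fold change -0.85, SE 0.12), and the transketolase gene tkt1 fell by 0.65 (SE 0.11). The rises were those of pdc202 (0.82, SE 0.13), pdc201 (0.50, SE 0.16) and ilv6, a regulatory subunit of acetolactate synthase (0.32, SE 0.10). Their adjusted p-values in edgeR's quasi-likelihood test lay between 3.3e-05 and 0.015. The call of pdc201 was lost without WT replicate 4 or asp1-D333A replicate 3, and that of ilv6 without WT replicate 4 or asp1-D333A replicate 2. The gene of the catalytic subunit of acetolactate synthase, ilv1, was not called (-0.21, SE 0.09, adjusted p 0.055 in edgeR). In the deletion 1 of 9 was called, beside 16.6% of all genes. It was pdc101, which rose to 6796 ± 771 CPM (0.47, SE 0.12, adjusted p 0.015 in edgeR). That call was lost without WT replicate 4 or 6 or deletion replicate 2 or 3, which left 0 of 9. The count was 2 with total counts only, with DESeq2 or without deletion replicate 1, and 3 with only the 6 libraries compared or without asp1-D333A replicate 3.

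Vitamin B6 genes were examined beside bsu1. Of 13, 5 rose and 5 fell in asp1-D333A, beside 30.3% higher and 30.8% lower over all genes. Their median log2 fold change was 0.02. The 2 other transporters of the list parted: SPCC576.17c rose by 0.95 (SE 0.14) and SPCC965.13 fell by 0.60 (SE 0.08). The paired subunits of pyridoxal phosphate synthase parted as well, with snz1 at -0.47 (SE 0.10) and sno1 at 0.80 (SE 0.14). The other rises were SPAC644.09 (0.54), plr1 (0.63) and SPAC1952.08c (0.37), and the other falls SPAC3A11.11c (-0.39), SPCC18.10 (-0.52) and akr7 (-0.68), the last lost with upper-quartile scaling and without WT replicate 4 or 6. All 10 calls had adjusted p-values of at most 0.018 in edgeR's quasi-likelihood test. In the deletion SPCC965.13 was called higher (0.37, SE 0.08) and SPBC725.03, a pyridoxamine phosphate oxidase gene, lower (-0.57, SE 0.12). These made 2 of 13 called, beside 16.6% of all genes. That count was 4 with upper-quartile scaling or total counts only, 5 with only the 6 libraries compared and 6 without asp1-D333A replicate 3.

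Last, genes with the most similar course over the 9 libraries were looked up among 5595 with a mean of at least 50 counts, by the root mean square difference of centred log2 CPM. The nearest to thi9 was the protein kinase gene ppk1 at 0.08, to pho4 the actin patch gene lsb4 at 0.042, to thi4 the spliceosome gene brr2 at 0.062, to thi2 the ubiquitin hydrolase gene ubp7 at 0.033, to bsu1 the transporter gene SPBC530.15c at 0.042 and to nmt1 wwm2 at 0.20. Distances between members ran from 0.19 between thi2 and pho4 to 0.83 between nmt1 and thi9. With nmt1 left out the largest was 0.57, between bsu1 and thi9. Counts of nmt1, from 6 to 25 per library, lay below the mean asked of candidates, so all its distances rest on few counts. Distances between members do not compare with the distances above, which are the smallest among 5595 candidates. Next in rank were rad25 and qcr7 for thi2, SPNCRNA.1645 and coq5 for thi4, hpt1 and pdk1 for pho4, ahk1 and SPAC25B8.10 for bsu1, mug123 and chr4 for thi9, and osr2 and pby1 for nmt1.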

How the data were processed

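Stranded polyadenylated RNA libraries were sequenced from both ends, per the labels' protocols. The authors deposited raw counts per gene, whole numbers for 6986 features in 9 libraries. The submitters' processing notes name HISAT2 2.1.0, HTSeq 0.10.0, SAMtools, DESeq2 and ASM294v2, with no roles; the strand setting, the annotation and the treatment of reads with several matches are not given in the sources used here. Counts were tested with edgeR 4.0.16 in R 4.3.3 (quasi-likelihood, robust, TMM scaling, group means over all 9 libraries, Benjamini-Hochberg over 6147 genes; filterByExpr with a minimum count of 10 removed 839). CPM values are TMM-scaled. The fitting code was tested on simulated data. Names, neighbours and promoters came from RefSeq ASM294v3, in which 6833 identifiers matched; the count table holds no coordinates. BLAST 2.17.0 found no other transcript at near identity to a member. The members and lists were chosen with earlier results of these data known. The named genes were the members, their annotated neighbours, the called genes of each list and the 3 most alike genes per member; uncalled list genes named here were added after their values were seen. Alternatives were RLE, upper-quartile and total-count scaling, no filter, DESeq2 1.42.0, fits to the 6 libraries compared, each library left out, and a replicate block.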

Additional observations from a re-analysis of the deposited data

How the results depend on the processing

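The falls of thi4, pho4 and thi9 in asp1-D333A kept their direction and their call under all 15 alternatives, and their differences between the mutants under all 16. The single call among the 6 genes in the aps1 deletion went to 0 with RLE scaling, total counts only and no filter, and ran from 0 to 1 with a library left out. Of the 9 other thiamine genes, 1 was called in the deletion with upper-quartile scaling, total counts or DESeq2, 2 with only the 6 libraries compared, and 0 to 2 with a library left out. Over all genes, calls in the deletion ran from 539 to 1668 with a library left out.

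In asp1-D333A against WT, thi2 was -0.08 with upper-quartile scaling and -0.11 with total counts only, while bsu1 was called at 0.36 and 0.32; between the mutants thi2 was 0.03 and 0.05, and nmt1 was called at -0.90 with upper-quartile scaling. In the deletion against WT, thi4 lost its call at -0.27 with RLE scaling, -0.33 with total counts only and -0.28 with no filter. Values near 0 changed sign there: thi2 was 0.0067 with RLE scaling and DESeq2 and 0.0021 with 6 libraries, and thi9 was 0.012 with RLE scaling and DESeq2, 0.001 with no filter and 0.008 with 6 libraries. With a library left out, values in the deletion against WT ran from -0.2758 to 0.1568 for nmt1, -0.0525 to 0.0505 for thi2, -0.33 to -0.19 for thi4 and -0.0578 to 0.0529 for thi9; bsu1 between the mutants ran from -0.1772 to 0.0684. The cause was not tested.

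With the replicate number as a block in the 6 mutant libraries, 4 of the 6 genes, 7 of the 9 and 3855 of all genes were called. Deviations of same-numbered mutant libraries correlated at 0.146, 0.0607 and -0.131 across genes, and those of differently numbered ones from -0.233 to 0.218. These values showed no pairing by number but cannot exclude it. WT shares no number with the mutants. Counts of 6 to 25 limit what nmt1 can show.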
